A study of Mus musculus with 24 samples.

Results

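Tetraspanins and their relatives of the L6 family were followed in whole adipose tissue of male mice. Members were taken by gene symbol: protein-coding genes named Tspan or Tm4sf with a number, together with Cd9, Cd37, Cd53, Cd63, Cd81, Cd82 and Cd151. This gave 32 genes, 27 tetraspanins and 5 Tm4sf genes, of 21734 protein-coding genes and 49585 gene identifiers in the tables. Tm4sf19 and Tspan33 had been selected on their fold changes in these libraries, as strong responders with no comparison named. Their values are given as a description, and counts of called members below leave them out unless they are said to be included.

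Tetraspanins are small multi-pass membrane proteins that gather integrins, proteases and immunoglobulin-domain proteins into membrane patches; several of them mark exosomes. The TspanC8 subgroup carries the sheddase ADAM10 to the cell surface, Cd37 and Cd53 are leukocyte tetraspanins, and Cd9, Cd63, Cd81 and Cd151 are found in most cell types. The Tm4sf (L6) proteins have a similar topology but belong to a separate family, and in adipose tissue TM4SF19 has been described in lipid-laden macrophages.

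The study asked how a high-fat diet, and loss of Azin2 (antizyme inhibitor 2, a regulator of polyamine synthesis), change gene expression in fat. Bulk RNA sequencing covered 24 libraries in 6 groups, all from males. Subcutaneous adipose tissue (SAT) came from C57BL/6J mice given a diet with 60% of calories from fat for 20 weeks (4 libraries, called high-fat) or one with 10% for 20 weeks (4, low-fat). Azin2-/- mice and wild-type littermates, all on the 60% fat diet for 8 weeks, gave epigonadal adipose tissue (GAT) from 4 Azin2-/- and 4 wild-type libraries, and SAT from 3 Azin2-/- and 5 wild-type libraries. There was no low-fat group for the Azin2 mice, and the labels give no tissue or cell restriction of the deletion. The labels name replicates by numbers or animal marks but do not state that each is a separate animal, so the p-values measure the spread between these libraries.

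Libraries held 31.96 to 46.62 megareads of counts. Azin2 was at 12.7 to 19.8 CPM in Azin2-/- GAT and 22.9 to 26.6 CPM in wild-type GAT, and at 6.73 to 11.5 CPM in Azin2-/- SAT and 14.6 to 26.0 CPM in wild-type SAT (CPM: counts scaled to the same library total). Transcripts of neighbouring tissues were abundant in 6 libraries. The summed CPM of 9 epididymis markers was 22516 in the library labelled low-fat SAT replicate 1 and 7191 in wild-type GAT replicate 3, and at most 0.310 in every other library. Low-fat SAT replicate 1 also had 4.34 CPM of 4 subcutaneous identity genes, against 93.2 to 107 CPM in low-fat replicates 3, 5 and 6, and 12.8 CPM of 3 epigonadal identity genes, against 0.0726 to 0.184 CPM, so its label as SAT goes against its markers. The sum of 12 skeletal muscle markers was 71870 CPM in Azin2-/- SAT replicate 2, 64188 in wild-type SAT replicate 3, 23174 in low-fat SAT replicate 5 and 6602 in high-fat SAT replicate 6, and at most 1137 CPM elsewhere.

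The 250 bases upstream of the RefSeq start (GRCm38.p6) are shown for the 4 members on which most of the results turn: Tm4sf19 (chr16:32400256-32400505, plus strand), Tspan33 (chr6:29693964-29694213, plus strand), Cd53 (chr3:106790150-106790399, minus strand) and Cd37 (chr7:45238840-45239089, minus strand). They are written 5′ to 3′ on the gene's strand. Capitals mark matches to 4 motifs searched on both strands: TGANTCA (AP-1), GAGGAAGT (PU.1), CACGTG (the E-box of MITF and TFEB) and TCATGTG (the M-box of MITF).
Tm4sf19: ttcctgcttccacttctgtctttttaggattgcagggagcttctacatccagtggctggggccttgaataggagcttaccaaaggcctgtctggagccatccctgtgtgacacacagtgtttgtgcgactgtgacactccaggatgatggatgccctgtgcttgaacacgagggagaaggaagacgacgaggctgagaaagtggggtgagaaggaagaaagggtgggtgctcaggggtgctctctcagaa
Tspan33: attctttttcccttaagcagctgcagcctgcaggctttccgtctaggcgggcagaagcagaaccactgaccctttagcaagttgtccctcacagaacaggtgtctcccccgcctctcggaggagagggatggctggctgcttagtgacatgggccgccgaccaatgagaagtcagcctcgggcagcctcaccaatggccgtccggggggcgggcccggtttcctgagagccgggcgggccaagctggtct
Cd53: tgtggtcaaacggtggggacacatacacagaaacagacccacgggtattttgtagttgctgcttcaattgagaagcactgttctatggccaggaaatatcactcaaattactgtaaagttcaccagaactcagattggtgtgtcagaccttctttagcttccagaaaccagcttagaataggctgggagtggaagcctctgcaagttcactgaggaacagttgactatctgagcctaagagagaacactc
Cd37: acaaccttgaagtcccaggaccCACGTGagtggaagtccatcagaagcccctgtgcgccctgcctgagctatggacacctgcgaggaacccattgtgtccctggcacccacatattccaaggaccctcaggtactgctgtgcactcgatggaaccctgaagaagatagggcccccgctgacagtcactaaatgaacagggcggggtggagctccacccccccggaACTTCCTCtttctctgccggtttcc
Of these 4, only the Cd37 window held a match: CACGTG and, read on the other strand, GAGGAAGT, which shows as ACTTCCTC. The first RefSeq start listed for each gene was used, and the Cd37 window lies inside the GENCODE span of that gene (chr7:45233632-45239115). Among all 27025 promoter windows of this length, 6.05% held CACGTG and 2.44% held GAGGAAGT. Windows were matched for 30 of the 32 members, of which 2 (Cd37 and Tm4sf5) held GAGGAAGT, 1 (Cd37) CACGTG, 2 (Tspan10 and Tspan3) TCATGTG and 1 (Tspan15) TGANTCA. The background shares of the last pair of motifs were 3.22% and 6.87%. Composition differed between the 4 windows: Tspan33 had 13 CpG dinucleotides and 62.4% GC, Cd37 8 and 58.8%, Tm4sf19 4 and 53.6%, and Cd53 2 and 45.2%, beside medians of 6 and 52% over all windows.

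Within fat, the family spans a wide range of levels, led by the broadly expressed tetraspanins. On the TPM scale, counts were divided by the combined length of all annotated exons of a gene, so genes can be compared only roughly. The means over 24 libraries were 433 for Cd81, a partner of immunoglobulin-domain proteins, and 412 for Cd151, which binds laminin-receptor integrins. Tspan12, known as part of the Norrin receptor complex of endothelium, averaged 222 TPM, and Cd63, a tetraspanin of late endosomes and exosomes, 202 TPM. These 4 made up 43.2% to 54.4% of the family's summed TPM, which was 1670 to 3192 per library. Tspan17, a TspanC8 member, followed with 183 TPM. At the other end, Tspan10 averaged 0.0358 TPM with 18 counts in all and Tm4sf20 0.00538 TPM with 2 counts, and no fold is given for either. Tm4sf19 averaged 15 TPM but ranged from 0.147 to 70.9 TPM, whereas Cd81 ranged from 269 to 507 TPM.

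**Figure D1:**
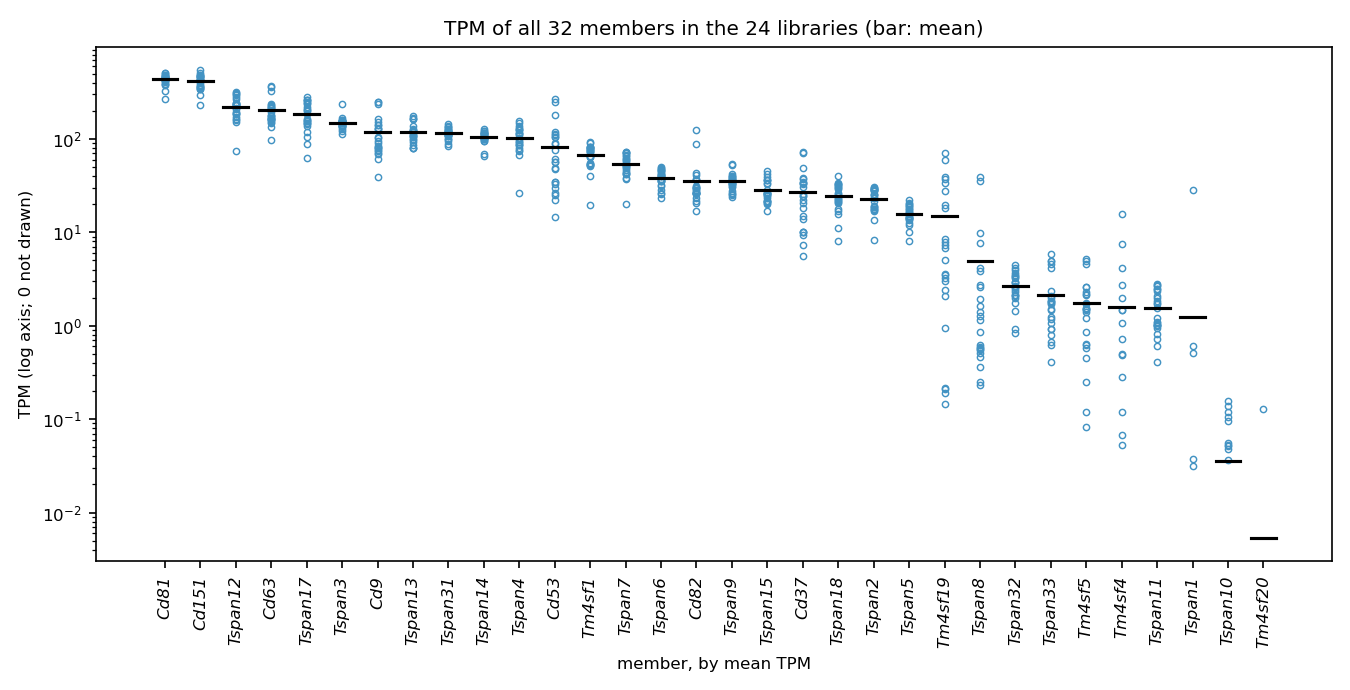
TPM of each of the 32 members (log axis) in each of the 24 libraries, with members ordered by their mean, drawn as a bar. Cd81 and Cd151 average 433 and 412 TPM, and Tm4sf19 spreads from 0.147 to 70.9 TPM.

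Levels below are normalised CPM (CPM scaled with TMM factors over all 24 libraries). The 2 members of highest TPM overlapped between groups. Cd81 had 383 to 404 normalised CPM in high-fat SAT and 338 to 401 in low-fat SAT, 351 to 380 in Azin2-/- GAT and 349 to 398 in wild-type GAT, and 307 to 423 in Azin2-/- SAT and 337 to 372 in wild-type SAT. Cd151 had 270 to 302 normalised CPM in high-fat SAT and 206 to 366 in low-fat SAT, 324 to 358 in Azin2-/- GAT and 334 to 451 in wild-type GAT, and 316 to 408 in Azin2-/- SAT and 327 to 377 in wild-type SAT. Neither gene passed the test in any genotype or depot comparison.

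In GAT, 3 tetraspanins were called higher in Azin2-/- mice than in wild-type mice: Cd53 and Cd37, which are 2 of the 4 leukocyte members, and Cd9. The other leukocyte members, Cd82 and Tspan32, had log2 fold changes of -0.47 and -0.05 and were not called (edgeR adjusted p = 0.342 and 0.869). Tm4sf19 stood at 6.42, 24.6, 21.3 and 16.6 normalised CPM in the 4 Azin2-/- libraries, against 1.83, 3.12, 2.66 and 1.15 in the 4 wild-type libraries. Every Azin2-/- library lay above every wild-type library, with means of 17.2 ± 7.92 and 2.19 ± 0.873 (SD, n = 4 each) and a log2 fold change of 2.97 ± 0.457 (SE), or 7.85-fold. Tspan33, the TspanC8 member known from B cells and erythroid cells, had 6.13, 8.51, 7.40 and 8.06 normalised CPM in Azin2-/- GAT and 2.98, 2.33, 2.76 and 2.70 in wild-type GAT. These groups were also apart, with means of 7.53 ± 1.04 and 2.69 ± 0.268 and a log2 fold change of 1.49 ± 0.148.

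Cd53, found on most leukocytes, had 53.8, 119, 132 and 106 normalised CPM in Azin2-/- GAT, against 53.1, 44.9, 28.3 and 30.0 in wild-type GAT. It rose by 1.40 ± 0.298 on the log2 scale (edgeR quasi-likelihood test, Benjamini-Hochberg adjusted over all genes, adjusted p = 0.0409), with groups that did not overlap, though the lowest Azin2-/- library was close to the highest wild-type one. Cd37, best known from B cells and also present in myeloid cells, had 37.9, 68.2, 72.4 and 58.4 in Azin2-/- GAT and 33.7, 37.9, 24.8 and 21.9 in wild-type GAT. Its log2 fold change was 1.01 ± 0.233 (edgeR adjusted p = 0.0428), and the lowest Azin2-/- library nearly met the highest wild-type one. Cd9, a tetraspanin of many cell types including macrophages, had 73.3, 135, 144 and 97.4 in Azin2-/- GAT and 47.6, 76.0, 56.2 and 47.4 in wild-type GAT. It rose by 0.99 ± 0.239 (edgeR adjusted p = 0.0467), with 1 wild-type library above the lowest Azin2-/- library. Cd63 had 226, 327, 389 and 269 in Azin2-/- GAT and 164, 250, 170 and 183 in wild-type GAT, a log2 fold change of 0.67 ± 0.196 that did not pass the test (edgeR adjusted p = 0.0739).

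**Figure D2:**
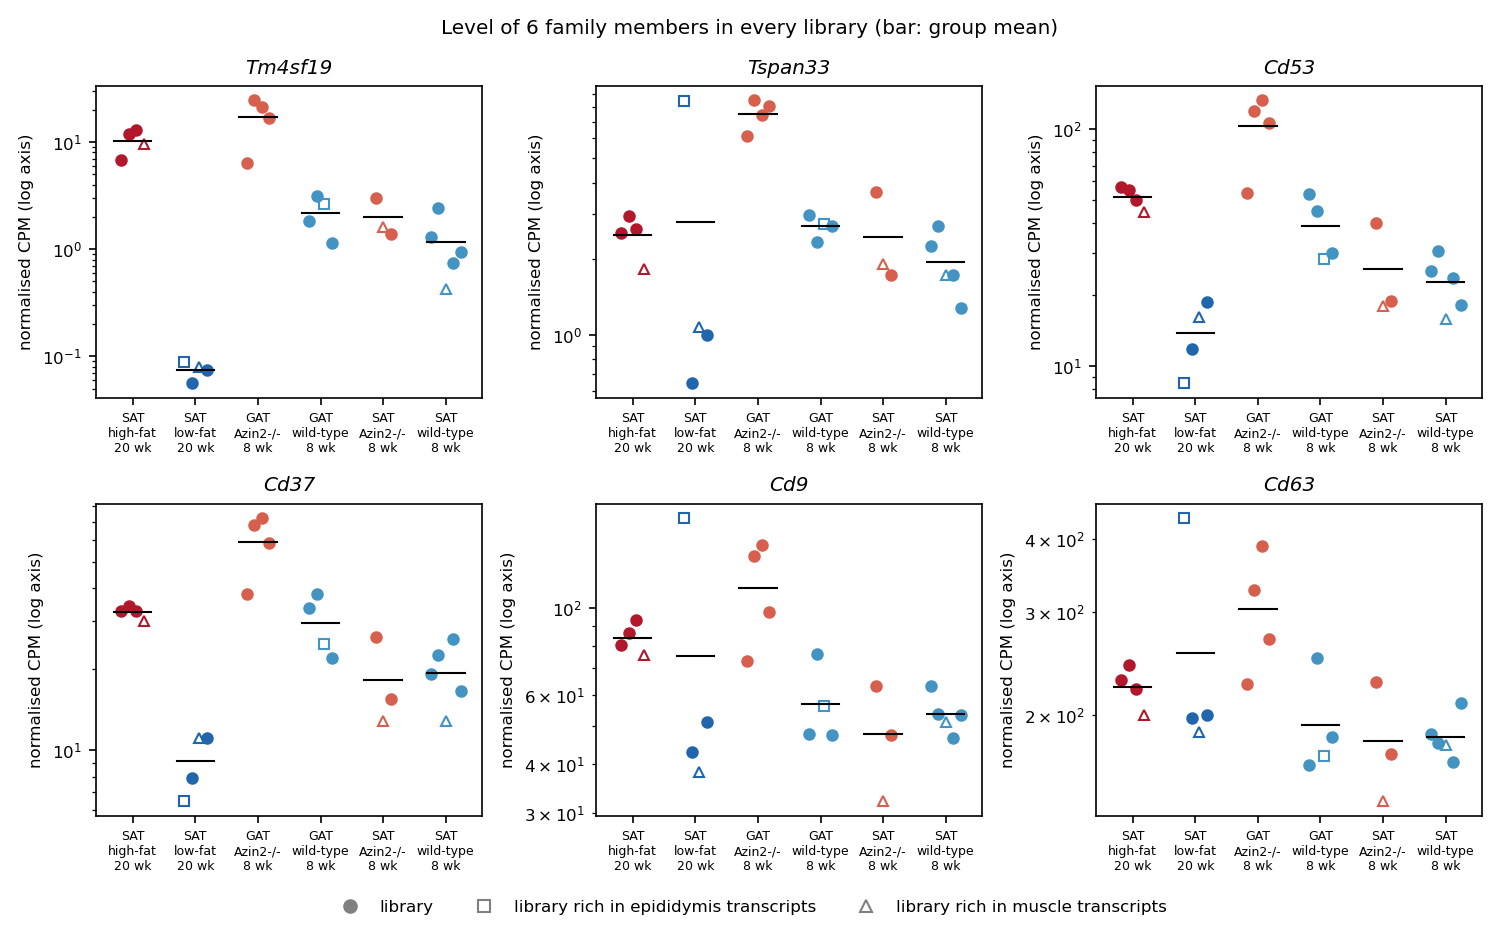
Normalised CPM (log axis) of 6 members in every library, by group, with the group mean as a bar; open squares are libraries rich in epididymis transcripts and open triangles libraries rich in muscle transcripts. Tm4sf19 lies between 6.42 and 24.6 in Azin2-/- GAT and between 1.15 and 3.12 in wild-type GAT, and low-fat SAT replicate 1 stands above its group for Tspan33, Cd9 and Cd63.

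In GAT 28 members passed the count filter. Without Tm4sf19 and Tspan33, 3 of 26 were called (11.5%; called: adjusted p under 0.05), beside 6.77% of all 16778 genes tested. All 3 were higher in Azin2-/-, where 5.45% of all genes were called higher and 1.32% lower. No member was called lower. Of the 26, Cd53, Cd37 and Tm4sf5 had every Azin2-/- library above every wild-type library, beside 6.90% of all genes. In 2 of the 26 every Azin2-/- library was below every wild-type one, a share close to the 7.80% of all genes. Tspan12 had 158, 173, 153 and 167 normalised CPM in Azin2-/- GAT, all below the 180, 221, 186 and 279 of wild-type GAT, with a log2 fold change of -0.40 ± 0.137 (edgeR adjusted p = 0.104). Tspan9 had a log2 fold change of -0.33 with an edgeR adjusted p of 0.123, and its groups were also apart. Tm4sf5, an L6 member known mainly from liver and gut, had 0.734 to 1.89 normalised CPM in Azin2-/- GAT and 0.451 to 0.709 in wild-type GAT (edgeR adjusted p = 0.0790). The other 17 members tested and not yet named for GAT had log2 fold changes from -1.13 for Tspan8 to 0.52 for Tspan11, and the median over the 28 was -0.04, beside -0.0348 over all genes.

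These GAT calls depend on single libraries. Leaving out Azin2-/- GAT replicate 2, 3 or 4, or wild-type GAT replicate 2 or 4, left 0 of the 26 members called (and 0 to 1 of all genes). Leaving out 1 of the other 3 GAT libraries left 1 to 5 called, and the share of all genes in those settings is not given here. Macrophage markers moved in the same direction: 9 of 10 markers were called higher in Azin2-/- GAT, with summed levels of 2096 to 4363 CPM in Azin2-/- GAT and 1169 to 1753 CPM in wild-type GAT and none at 0, and Azin2-/- replicate 1, lowest of its group for Tm4sf19, Tspan33, Cd53, Cd37 and Cd9, was also lowest for this sum. Of 10 markers of lipid-associated macrophages 5 were called higher (summed 15634 to 16974 CPM in Azin2-/- and 12262 to 14433 CPM in wild-type GAT, a list that holds Lpl, which adipocytes also express), while 3 of 5 B cell markers were called lower (4.72 to 8.09 CPM in Azin2-/- and 10.5 to 29.6 CPM in wild-type GAT). The part of these cell types in the members' values was not tested; in bulk tissue, more cells of a type and more RNA per cell cannot be told apart.

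Genes of proteins that work with tetraspanins were called in both directions in GAT. Beside these lists, 6.77% of all genes tested were called, 5.45% higher and 1.32% lower in Azin2-/-. The list of ADAM10 and its substrates also held Adam17, a separate sheddase. Of the 13 genes tested in this list, 3 were called, all higher in Azin2-/-. Trem2, a lipid receptor of macrophages that is shed from the surface, averaged 132 against 26.7 normalised CPM (log2 fold change 2.31, edgeR adjusted p = 0.0408). The others were Adam17 (77.5 against 49.1, 0.67, 0.0409) and the receptor kinase Axl (223 against 145, 0.63, 0.0470). Adam10 itself was not called. Among 8 integrins, Itga5 (121 against 71.9) and Itga7 (499 against 305) were called higher. Of 12 partners of CD9 and CD81, 2 were called higher and 3 lower in Azin2-/-. Igsf8 (68.0 against 43.1) and Cd101 (1.05 against 0.307) were those called higher, and the lower ones included Cr2, a complement receptor of B cells (0.127 against 0.568), and Ifitm1 (1.86 against 3.32). Sdcbp (syntenin, an exosome adaptor) averaged 352 normalised CPM in Azin2-/- GAT and 212 in wild-type GAT and was the 1 called gene of 12 in the exosome list. Neither Fzd4 nor Lrp5, the receptors that act with Tspan12, was called.

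In SAT, loss of Azin2 left the family without a called member. By edgeR, 0 of the 26 members other than Tm4sf19 and Tspan33 were called, beside 0.00590% (1 gene) of 16948 genes; 3 of the 26 had an unadjusted p under 0.05, and 1745 of all genes (10.3%) did. DESeq2 and limma-voom each called 1 member, Tspan18. The shares of all genes that DESeq2 and limma-voom called are not given here, so that call cannot be set against the edgeR share. In 2 members every Azin2-/- library was above every wild-type library, beside 3.10% of all genes. Tm4sf19 had 3.0, 1.61 and 1.40 normalised CPM in Azin2-/- SAT and 1.30, 2.43, 0.423, 0.737 and 0.942 in wild-type SAT, so the groups overlapped. Tspan33 had 3.69, 1.91 and 1.73 in Azin2-/- SAT and 2.25, 2.70, 1.72, 1.73 and 1.28 in wild-type SAT, overlapping as well. Tspan18, a calcium-channel partner in endothelial cells, had 72.7, 78.5 and 80.0 in Azin2-/- SAT and 59.5, 53.8, 46.4, 60.1 and 65.9 in wild-type SAT. Every Azin2-/- library was above every wild-type one, but the log2 fold change of 0.44 ± 0.103 did not pass the edgeR test (adjusted p = 0.255). Tspan3 was above all wild-type libraries too, at 193 to 217 against 166 to 187 normalised CPM (edgeR adjusted p = 0.431). These 2 were named after their values were seen. None of the partner genes was called in SAT, and 0 of 10 macrophage markers were called there.

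Whether the genotype effect differed between depots was tested as an interaction over 16 libraries. For Cd9 the log2 fold change in GAT exceeded that in SAT by 1.17 ± 0.333 (edgeR adjusted p = 0.325), for Cd37 by 1.10 ± 0.390 (0.372) and for Cd53 by 1.23 ± 0.469 (0.391). The differences for Tm4sf19 and Tspan33 were 2.21 ± 0.742 and 1.16 ± 0.368. Of the 27 members other than Tm4sf19 and Tspan33, 0 were called by edgeR, and 0 of 18033 genes (0.00%); 6 of the 27 and 2016 genes (11.2%) had an unadjusted p under 0.05. DESeq2 called 0 members and 158 genes. With limma-voom 2718 genes were called and 12 members, a count that includes Tm4sf19 and Tspan33, for which no test is read.

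**Figure D3:**
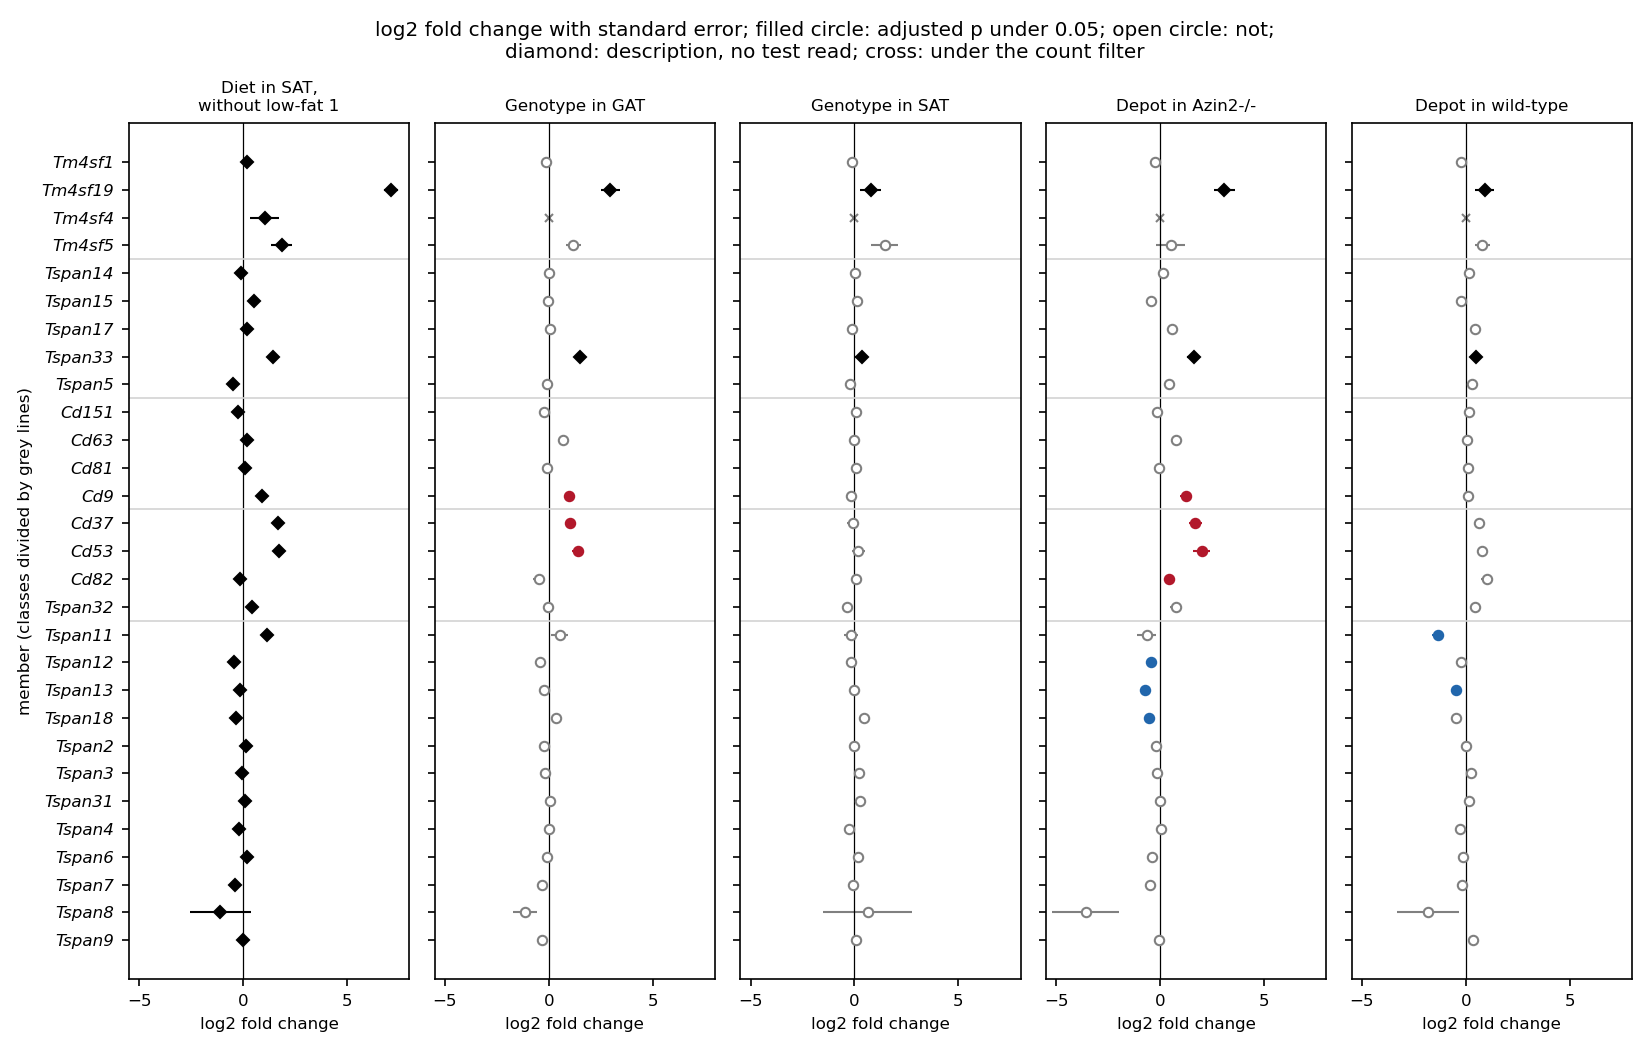
log2 fold changes with standard errors of the 29 members tested in at least 1 of 5 comparisons; columns are diet in SAT without low-fat replicate 1, genotype in GAT and SAT, and GAT over SAT within each genotype, and rows are grouped as L6 genes, TspanC8, broadly expressed, leukocyte and other tetraspanins. Cd53 lies at 1.40 for genotype in GAT and 2.0 for depot in Azin2-/-, and filled circles mark adjusted p under 0.05, diamonds values given without a test and crosses members under the count filter.

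Between depots, more members were called in Azin2-/- mice than in wild-type mice, as were more of all genes. Without Tm4sf19 and Tspan33, 7 of 26 members tested there were called (26.9%), 4 higher and 3 lower in GAT, beside 15.2% of 16800 genes (9.13% higher and 6.04% lower). In wild-type mice 2 of 26 were called, both lower in GAT (7.69%), beside 4.33% of 17030 genes (2.47% higher and 1.87% lower). The depot comparisons share the GAT and SAT libraries of the genotype comparisons, so their values are not separate evidence.

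Tm4sf19 averaged 17.2 ± 7.92 normalised CPM in Azin2-/- GAT and 2.0 ± 0.873 in Azin2-/- SAT (n = 4 and 3), a log2 fold change of 3.09 ± 0.520, and 2.19 ± 0.873 in wild-type GAT and 1.17 ± 0.777 in wild-type SAT (n = 4 and 5), 0.90 ± 0.477. Azin2-/- GAT libraries lay above all Azin2-/- SAT libraries, and the wild-type depots overlapped. For Tspan33 the log2 fold changes of GAT over SAT were 1.61 ± 0.295 in Azin2-/- and 0.47 ± 0.227 in wild-type mice. Cd53 was higher in GAT than in SAT of Azin2-/- mice by 2.0 ± 0.404 (edgeR adjusted p = 0.0247), with SAT values of 40.0, 18.0 and 18.8 normalised CPM below all 4 GAT values. Cd37 was higher by 1.70 ± 0.309 (0.0206), its SAT values being 26.3, 12.9 and 15.5. Cd9 was higher by 1.24 ± 0.300 (0.0358), with SAT values of 63.1, 32.1 and 47.4. In wild-type mice the same 3 genes had log2 fold changes of 0.78, 0.61 and 0.08 and were not called (edgeR adjusted p = 0.0975, 0.150 and 0.778). Cd82, a tetraspanin of leukocytes and epithelia, had 36.0, 30.1, 31.2 and 28.4 normalised CPM in Azin2-/- GAT and 23.8, 20.3 and 24.9 in Azin2-/- SAT (0.45 ± 0.113, edgeR adjusted p = 0.0394). In wild-type mice Cd82 had 27.1 to 77.2 in GAT and 19.7 to 23.1 in SAT, also without overlap. Its log2 fold change there was 1.01 and was not called (edgeR adjusted p = 0.0779). The value of 77.2 is that of the epididymis-rich replicate 3. All 10 macrophage markers were called higher in GAT of Azin2-/- mice (2096 to 4363 CPM in GAT and 622 to 1288 CPM in SAT), against 1 of 10 in wild-type mice (1169 to 1753 CPM in GAT and 616 to 1204 CPM in SAT).

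Lower in GAT was Tspan13, which has been linked to calcium channels, in both genotypes. It had 79.1, 54.7, 60.3 and 67.3 normalised CPM in Azin2-/- GAT and 102, 95.7 and 129 in Azin2-/- SAT, and fell by 0.73 on the log2 scale (SE 0.150, edgeR adjusted p = 0.0251). In wild-type mice it had 86.1, 79.4, 65.7 and 81.2 in GAT and 128, 115, 91.6, 114 and 95.6 in SAT, and fell by 0.48 (SE 0.113, edgeR adjusted p = 0.0446). GAT lay below SAT without overlap in both genotypes. Tspan18 (log2 fold change -0.56 ± 0.0726, edgeR adjusted p = 0.0129) and Tspan12 (-0.46 ± 0.0832, 0.0203) were lower in GAT of Azin2-/- mice. In wild-type mice both had negative log2 fold changes that were not called, -0.49 for Tspan18 and -0.21 for Tspan12. Tspan11, a member whose role is little known, had 1.25, 0.633, 1.88 and 1.18 normalised CPM in wild-type GAT and 3.96, 2.64, 3.50, 2.97 and 2.58 in wild-type SAT, and fell by 1.34 (SE 0.305, edgeR adjusted p = 0.0407). In Azin2-/- mice Tspan11 ranged from 0.928 to 2.60 in GAT and from 1.76 to 4.53 in SAT, and was not called.

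Depot calls shift with single libraries as well. In Azin2-/- mice, 0 members were called without GAT replicate 2 or without SAT replicate 3, and 1 (Tspan18) without GAT replicate 3 or 4; 7 to 10 were called when 1 of the other libraries was left out, the muscle-rich SAT replicate 2 among them. In wild-type mice, 0 to 3 members were called with 1 library left out. Without both the muscle-rich SAT replicate 3 and the epididymis-rich GAT replicate 3, 4 were called: Tspan11 and Tspan13 lower, and Cd82 and Tspan17 higher in GAT. Shares of all genes called in these settings are not given here, so these counts are not a result about the family.

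In Azin2-/- mice, 6 genes of the ADAM10 list were called higher in GAT and 1 lower, of 14 tested. Beside this and the lists below, 15.2% of all genes were called in Azin2-/- mice and 4.33% in wild-type mice. Trem2 averaged 132 normalised CPM in Azin2-/- GAT and 19.4 in Azin2-/- SAT, Cd44, a hyaluronan receptor, 190 and 53.8, and the chemokine Cxcl16 27.6 and 11.7; Adam17, Notch2 and Axl were the other 3 called higher. The 1 called lower was Cdh2 (N-cadherin), with 3.55 in GAT and 9.75 in SAT. In wild-type mice Cdh2 was the 1 called gene of 15, lower in GAT, with 4.0 in GAT and 7.92 in SAT. Of 8 integrins 2 were called higher in GAT of Azin2-/- mice (Itga4 and Itgb7) and 0 in wild-type mice. Among CD9 and CD81 partners, 4 were called higher and 1 lower of 11 in Azin2-/- mice, and 3 higher of 12 in wild-type mice. Igsf3, an immunoglobulin-domain relative of Igsf8, was higher in GAT of both genotypes, with 10.3 normalised CPM in Azin2-/- GAT and 4.26 in Azin2-/- SAT, and 9.59 in wild-type GAT and 3.79 in wild-type SAT. In the exosome list 1 gene was called higher (Sdcbp) and 2 lower (Flot1 and Flot2) of 12 in Azin2-/- mice, and 0 of 12 in wild-type mice.

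Upk1b, a uroplakin with the tetraspanin fold that lies outside the symbol rule, had 1332 counts over the Azin2-/- GAT libraries and 1 over Azin2-/- SAT, and 4329 over wild-type GAT and 2 over wild-type SAT. The ratio in wild-type mice was 2556, with an exact 95% counting interval of 707 to 21109. All 6 mesothelium markers were also called higher in GAT of both genotypes (28.8 to 128 CPM in Azin2-/- GAT and 0.899 to 1.69 CPM in Azin2-/- SAT; 59.1 to 472 CPM in wild-type GAT and 1.27 to 3.45 CPM in wild-type SAT), and their part in the Upk1b value was not tested.

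Diet in SAT after 20 weeks gave the widest range for a single member. No comparison is named for the choice of members and this one may have entered it, so its values are a description. Tm4sf19 had 6.86, 11.8, 13.0 and 9.69 normalised CPM in high-fat SAT and 0.0890, 0.0559, 0.0804 and 0.0752 in low-fat SAT. In counts this was 1573 over the 4 high-fat libraries and 12 over the 4 low-fat libraries. The ratio of summed counts, scaled by library size, was 137, with an exact 95% counting interval of 78.1 to 265 that covers counting error only. Every high-fat library was far above every low-fat one.

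Tspan33 had 2.54, 2.96, 2.62 and 1.83 normalised CPM in high-fat SAT and 8.48, 0.642, 1.07 and 1.00 in low-fat SAT. The value of 8.48 is that of low-fat replicate 1, the library with epididymis transcripts. With it the log2 fold change of high-fat over low-fat was -0.24 ± 0.833, and without it 1.45 ± 0.256. Cd9 was high in the same library, at 80.1, 86.2, 92.9 and 75.7 in high-fat SAT and 169, 42.9, 38.2 and 51.0 in low-fat SAT, where 169 is again replicate 1. Its log2 fold change was 0.10 with that library and 0.92 without it. Tspan11 was at 3.47, 3.92, 4.05 and 3.15 in high-fat SAT and at 4.34, 1.59, 1.66 and 1.68 in low-fat SAT, with log2 fold changes of 0.61 with replicate 1 and 1.14 without it.

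The leukocyte members Cd53 and Cd37 had similar fold changes with and without that library. The other leukocyte members, Cd82 and Tspan32, had log2 fold changes of -1.16 and 0.62 with it, and -0.17 and 0.43 without it. Neither was called in either setting. Cd53 had 57.0, 55.1, 50.3 and 44.8 normalised CPM in high-fat SAT and 8.46, 11.8, 16.1 and 18.6 in low-fat SAT, a log2 fold change of 1.90 ± 0.230, or 1.73 ± 0.163 without low-fat replicate 1. Cd37 had 32.9, 34.1, 32.8 and 30.1 in high-fat SAT and 6.48, 7.91, 11.1 and 11.1 in low-fat SAT, at 1.81 ± 0.173, or 1.69 ± 0.126 without it. Both were well apart between diets. Macrophage markers were apart as well, with 1636 to 2062 CPM in high-fat SAT and 414 to 632 CPM in low-fat SAT over the 10 genes, of which 9 were called higher. B cell markers summed to 7.45 to 10.7 CPM in high-fat SAT and 2.98 to 5.49 CPM in low-fat SAT, and T cell markers to 10.6 to 16.9 CPM and 7.23 to 17.7 CPM. The part of these cells was not tested.

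Over all 8 libraries, and without Tm4sf19 and Tspan33, 3 of 27 members tested were called, all higher on the high-fat diet (11.1%): Tm4sf5, Cd37 and Cd53, beside 21.2% of 17066 genes. Without low-fat replicate 1, 10 of 27 were called (37.0%), beside 47.0% of 17268 genes. The 6 higher were the same 3 with Tspan15, Cd9 and Tspan11, and the 4 lower were Tspan5, Tspan12, Tspan18 and Tspan7. Without that library, Tspan15, a TspanC8 member, was at 83.0 to 95.2 normalised CPM in high-fat SAT and 55.0 to 67.5 in low-fat SAT. Tspan5, another TspanC8 member, was at 25.9 to 32.3 and 34.2 to 50, so the TspanC8 group held values in both directions, while Tspan14 (80.7 to 84.1 and 83.6 to 97.3) overlapped. Among members named in endothelial biology, Tspan12 was at 214 to 225 in high-fat SAT and 269 to 324 in low-fat SAT, and Tspan18 at 67.0 to 75.5 and 82.8 to 99.4. Tm4sf1, also known from endothelium, was at 84.6 to 94.5 and 67.3 to 96.7, which overlapped. Its log2 fold change was 0.19, in the other direction, and it was not called. Tspan7, known mainly from neurons, was at 82.9 to 98.1 and 110 to 131. Endothelial markers summed to 1824 to 1928 CPM in high-fat SAT and 1368 to 1524 CPM in low-fat SAT without replicate 1, which had 489 CPM. The part of endothelial cells in the members' values was not tested.

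Partner genes in the diet comparison are again a description. With all 8 libraries, 6 were called higher and 1 lower of 14 in the ADAM10 list, 4 higher and 1 lower of 8 integrins and 3 higher of 12 CD9 and CD81 partners, beside 21.2% of all genes. Without low-fat replicate 1 these were 9 higher and 2 lower of 14, 6 higher and 1 lower of 8 and 8 higher of 12, beside 47.0%. Without that library Trem2 averaged 60.0 normalised CPM in high-fat SAT and 2.32 in low-fat SAT, Cd44 110 and 28.2, Axl 158 and 77.5, and Adam17 67.6 and 43.1. Adam10 itself averaged 126 in high-fat SAT, and 108 in low-fat SAT with replicate 1 or 82.6 without it. Among integrins, again without replicate 1, Itga4 averaged 31.2 and 9.99 and Itga6 320 and 186, while Itgb4 was lower on the high-fat diet, at 13.8 and 20.2. Ptgfrn, a CD9 partner also called CD9P-1, averaged 96.2 normalised CPM in high-fat SAT, and 46.2 in low-fat SAT with replicate 1 or 42.0 without it.

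Several members were highest in libraries where transcripts of other tissues were abundant. Tspan1, an epithelial tetraspanin, was at 21.8 normalised CPM (981 counts) in low-fat SAT replicate 1, at 0.404 in wild-type GAT replicate 3 and at 0.363 in low-fat SAT replicate 3, and at most 0.0243 in the other 21 libraries. The 2 highest were the epididymis-rich libraries. Cd82 was at 124 normalised CPM in low-fat SAT replicate 1 and 77.2 in wild-type GAT replicate 3, against at most 36.6 in every other library. Tm4sf4, an L6 gene of liver and gut, was at 7.70 and 3.25 in these 2 libraries and at most 1.72 elsewhere. Tspan8, known from epithelia, was at 23.7 in Azin2-/- SAT replicate 2, 23.9 in wild-type SAT replicate 3, 5.20 in low-fat SAT replicate 5 and 3.71 in high-fat SAT replicate 6, the 4 muscle-rich libraries, and at most 2.04 in the other 20. Tspan8 was not called in any genotype or depot comparison, and its standard errors were the largest of the family there, at 0.584 to 2.15 in log2 units for genotype in GAT and SAT. Whether these tissues supply the transcripts was not tested.

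**Figure D4:**
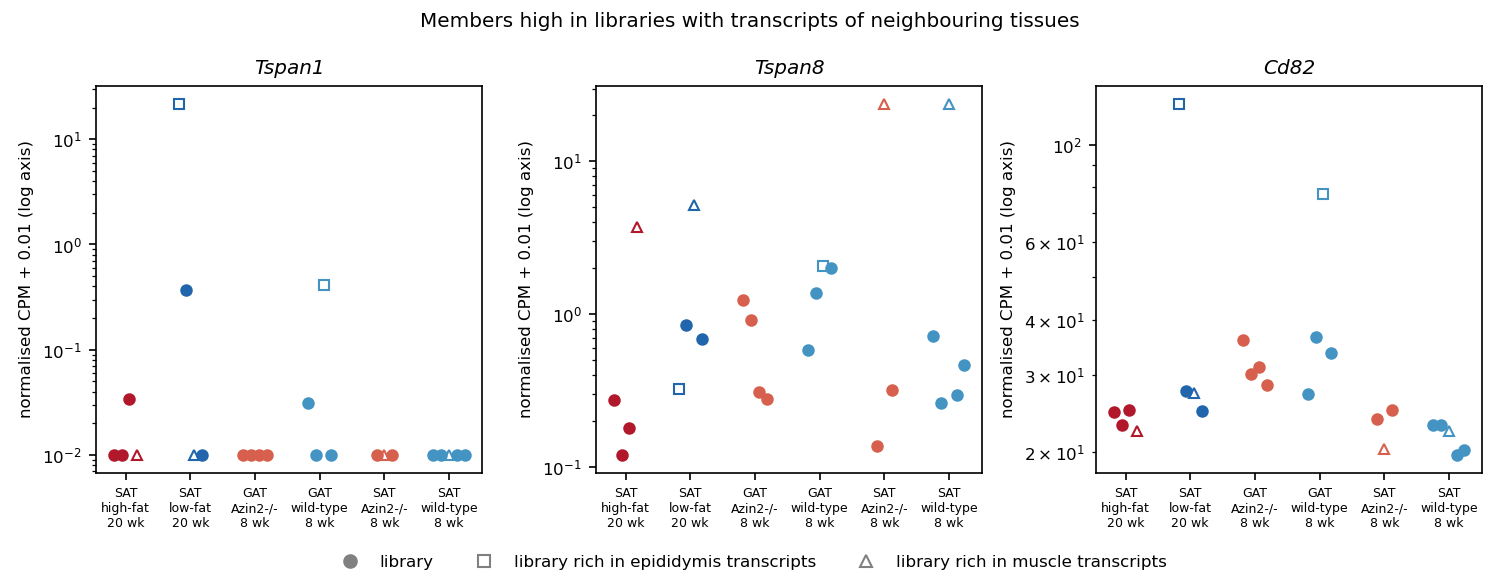
Normalised CPM with 0.01 added (log axis) of Tspan1, Tspan8 and Cd82 in every library, by group; open squares are the 2 libraries rich in epididymis transcripts and open triangles the 4 rich in muscle transcripts. Tspan8 reaches 23.7 and 23.9 in the muscle-rich SAT libraries of the Azin2 experiment, and Tspan1 21.8 in low-fat SAT replicate 1.

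The other 18 members tested were not called in either genotype or either depot comparison. Tspan17 came near in both depot comparisons: it had 114 to 133 normalised CPM in Azin2-/- GAT and 57.3 to 111 in Azin2-/- SAT (log2 fold change 0.59, edgeR adjusted p = 0.0832), and 98.1 to 130 in wild-type GAT and 71.0 to 98.1 in wild-type SAT (0.42, 0.0709). Over all 24 libraries Tspan31, known as an amplified gene in sarcomas, ranged from 62.4 to 92.1 normalised CPM, and Tspan14 from 65.0 to 97.3. Tm4sf1, an L6 member of endothelium, ranged from 26.9 to 115, Tspan4, a tetraspanin of migrasomes, from 19.0 to 100, Tspan2, known from oligodendrocytes, from 13.1 to 45.0, and Tspan32, a leukocyte member, from 1.74 to 8.04. For these last 4 genes the lowest value was that of low-fat SAT replicate 1.

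Position in the genome gives some members close neighbours. Cd151 and Tspan4 lie 3766 bases apart on chromosome 7 (chr7:141467392-141471473 and chr7:141475240-141493427, GRCm38), Tspan11 and Tspan9 7418 bases apart on chromosome 6, Tspan32 and Cd81 33094 bases apart on chromosome 7, and Tspan18 and Cd82 84605 bases apart on chromosome 2. In GAT of Azin2-/- mice relative to SAT, Cd82 was called higher and its neighbour Tspan18 lower. Some members overlap a gene on the opposite strand, among them Tspan31 with Cdk4 (45066 counts in all), Tspan4 with Chid1 (32497) and Cd37 with Tead2 (8589, against 26407 for Cd37). The libraries were made with a stranded kit, but no source used here gives the strand setting of the counting, and reads of such pairs may have been divided between them.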

How the data were processed

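Whole-tissue RNA was sequenced from both ends with a stranded total RNA kit, per the labels' protocols. The authors deposited raw read counts per Ensembl gene, 1 table per library. Trimming, alignment and counting tools named in the submitters' processing notes are cutadapt, STAR and HTSeq (0.6.1p1), and the build is GRCm38 (mm10). No source used here gives the other versions, the strand setting or the annotation. Symbols, types and lengths came from GENCODE M21.

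The test was edgeR's (4.0.16, under R 4.3.3; quasi-likelihood, robust, TMM, filterByExpr with a minimum count of 10 and a minimum total of 15, prior count 0.125), fitted on the groups compared, with Benjamini-Hochberg adjustment over all genes and a threshold of 0.05. The SE is the absolute log2 fold change divided by the square root of F. Levels are normalised CPM with TMM factors over all 24 libraries; marker sums are CPM of the total count. The script was tested on simulated data. A count of 0 allows up to 3 counts (95% confidence), and intervals cover counting error only.

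Groups were taken from the labels. Tested were the effects of genotype in each depot, of depot in each genotype, their interaction, and diet in SAT. The members and lists were chosen with earlier results of these data known. Named genes were Tm4sf19, Tspan33, the 4 members of highest mean TPM, up to 6 called members of largest change per comparison with a mean of at least 1 normalised CPM, and called partners, up to 4 per list. Others named here were chosen after their values were seen. Alternatives were DESeq2 1.42.0, its size factors within edgeR, limma 3.58.1 (voom with quality weights), no count filter, all 24 libraries in 1 fit, a replicate block, and leaving out each library or the libraries rich in other tissues. Some results are not reported here.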

Additional observations from a re-analysis of the deposited data

Results flagged for a closer look

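Among 153 combinations of a member (all 32) and a group of 4 or 5 libraries, 18 had a library far from the others of its group by Dixon's criterion. For normally distributed values chance meets it in about 1 in 20. A member with counts in only 1 library of a group always meets it, so the 18 cannot be set against that share. In low-fat SAT, replicate 1, the library with epididymis transcripts, met it for 7 members. It had 434 normalised CPM of Cd63 (others 187 to 200), 124 of Cd82 (24.8 to 27.6), 169 of Cd9 (38.2 to 51.0), 21.8 of Tspan1 (0.00 to 0.363), 4.34 of Tspan11 (1.59 to 1.68), 7.70 of Tm4sf4 (0.223 to 0.670) and 8.48 of Tspan33 (0.642 to 1.07).

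In wild-type GAT replicate 3, the other epididymis-rich library, Tspan1 was at 0.404 normalised CPM (others 0.00 to 0.0213) and Tm4sf4 at 3.25 (others 0). Tspan8 stood apart in 3 muscle-rich libraries: 3.71 normalised CPM in high-fat SAT replicate 6 (others 0.109 to 0.265), 5.20 in low-fat SAT replicate 5 (0.312 to 0.838) and 23.9 in wild-type SAT replicate 3 (0.250 to 0.712). The part of the other tissues in these values was not tested. Low-fat SAT replicate 5 was also below its group for Tspan31, at 64.1 (72.4 to 72.5). Tm4sf4 was further apart in Azin2-/- GAT replicate 1, at 1.15 (others 0), and in wild-type SAT replicate 2, at 0.853 (0.00 to 0.0283). The remaining 3 were very low levels with the others at 0: Tspan1 at 0.0243 in high-fat SAT replicate 5, Tspan10 at 0.0624 in wild-type SAT replicate 2 and Tm4sf20 at 0.0608 in wild-type SAT replicate 5.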

How the results depend on the processing

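The number of called members changed with the test and the libraries, and the cause was not tested. Counts in this section include Tm4sf19 and Tspan33, which were selected on their fold changes and for which no test is read. For diet in SAT (4 called) it was 13 with limma-voom, 7 with all 24 libraries in 1 fit, 12 without low-fat replicate 1, 17 without that library, low-fat replicate 5 and high-fat replicate 6, and 3 to 12 with 1 library left out. For genotype in GAT (5) it was 8 with DESeq2, 13 with limma-voom, 0 without a count filter, 3 with all 24 libraries and 0 to 7 with 1 left out. For genotype in SAT (0) it was 1 with DESeq2, 1 with limma-voom and 0 otherwise. For depot in wild-type mice (2) it was 5 with DESeq2, 6 with limma-voom, 0 without a count filter, 1 with all 24 libraries, 4 without both replicate 3 libraries, and 0 to 3 with 1 left out. For depot in Azin2-/- mice (9) it was 14 with DESeq2, 20 with limma-voom, 6 without a count filter, 6 with all 24 libraries and 0 to 12 with 1 left out. The interaction (0) gave 12 with limma-voom and 0 otherwise. Over all genes, the main test called 21.2% for diet in SAT, 6.77% for genotype in GAT and 0.00590% for genotype in SAT. It called 4.33% for depot in wild-type mice and 15.2% for depot in Azin2-/- mice. For diet the share was 47.0% without low-fat replicate 1. Shares for the other settings are not given here, so the counts in this section are not a result about the family.

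Some log2 fold changes turned sign or came to 0.00. For diet, Tspan33 (-0.24) was 1.38 with limma-voom, 1.36 with the replicate block, 1.45 without low-fat replicate 1 and 1.72 without 3 libraries. With 1 library left out, the diet values ran from -0.57 to 1.45 for Tspan33, from -0.33 to 0.15 for Tspan18 (-0.03 with all libraries), from -0.10 to 0.92 for Cd9 (0.10) and from -0.46 to 0.00 for Tspan12 (-0.18); Tspan18 was -0.38 without the 3 libraries. For genotype in SAT, Tspan33 (0.34) was -0.04 with limma-voom and -0.09 to 0.55 with 1 library left out, the lowest without Azin2-/- replicate 1.

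Some numbers or marks occur in both groups of a comparison, and the labels do not say whether they stand for the same animal. With 3 pairs, the correlations of deviations within pairs were -0.140 to 0.311 for diet and -0.200 to 0.107 for genotype in GAT. For depot in wild-type mice they were -0.0637 to 0.196. With 2 pairs they were 0.581 and 0.871 for genotype in SAT, where the higher pair is the muscle-rich one. For depot in Azin2-/- mice they were -0.0631 and 0.0445. With the replicate block, the called members numbered 10 for diet, 5 for genotype in GAT, 0 for genotype in SAT, 0 for depot in wild-type mice, 6 for depot in Azin2-/- mice and 0 for the interaction. Tm4sf20, Tspan10 and Tspan1 did not pass the count filter in any comparison, with 2 and 18 counts in all for the first pair and nearly all counts of Tspan1 in 1 library.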
